A study of Mus musculus with 2 samples.

Results

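Lymphocyte homing receptors were examined in single-cell RNA profiles of mouse lung. The 9 genes were chosen by name as a list of receptors that steer lymphocytes between blood, lymphoid tissue and peripheral organs: Ccr2 (ENSMUSG00000049103), Ccr4 (ENSMUSG00000047898), Ccr7 (ENSMUSG00000037944), Ccr9 (ENSMUSG00000029530), Ccr10 (ENSMUSG00000044052), Cxcr3 (ENSMUSG00000050232), Cxcr6 (ENSMUSG00000048521), S1pr1 (ENSMUSG00000045092) and S1pr5 (ENSMUSG00000045087). The list was chosen with earlier results of these data known. All 9 were among the 33696 genes measured, and all 9 had transcripts in both libraries. The study compared GFI1 KO mice, which lack the DNA-binding transcriptional repressor GFI1, with GFI1 WT mice. Lungs of adult mice, from a colony kept on the C57BL6/J background, were dissociated with enzymes, live cells were sorted, and no lymphocyte gate was applied, so the lymphocytes come from a suspension of all lung cells. The data analysed here hold 1 library per label, each titled as mouse 1 of its genotype. The study's methods describe duplicates, and second samples were not analysed here.

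Chemokine receptors are G protein-coupled receptors that guide cells up gradients of chemokines presented by stroma, endothelium and myeloid cells. CCR7 binds CCL19 and CCL21 and brings naive lymphocytes and mature dendritic cells into lymph nodes, whereas S1PR1 senses the lipid sphingosine 1-phosphate and lets lymphocytes leave them. CCR9 is known for gut and thymus homing through CCL25, CCR10 for skin and mucosal homing through CCL27 and CCL28, CCR4 for skin and airway homing, and CXCR3, CXCR6 and CCR2 for entry of effector cells and monocytes into inflamed tissue. S1PR5 is the sphingosine 1-phosphate receptor of NK cells and patrolling monocytes.

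Values are unique molecular identifiers (UMIs, each tagging 1 captured RNA molecule), summed over the cells of a type and given as CPM, the count per 1000000 UMIs of that type. Intervals are exact 95% intervals (Poisson for levels, conditional binomial for ratios, Clopper-Pearson for shares of cells) and cover counting error only. With 1 library per label there was no replicate and no test, and genotype, mouse and library cannot be told apart. After filtering, 10495 KO and 19342 WT cells remained, with medians of 8935 and 5008 UMIs. The UMIs of Gfi1 itself did not check the labels. Its level over all cells was 3.60 CPM in the KO and 3.47 CPM in the WT library (ratio 1.04, 0.901 to 1.2). In the T cell compartment Gfi1 was higher in the KO library, at 17.5 against 7.88 CPM (2.23, 1.7 to 2.92). These 3′ UMIs need not lie in the part that the allele removes. The libraries shared 74 cell barcodes, of which 7 KO and 9 WT cells were T cells, and these held 0 and 3 Ccr10 UMIs.

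Lymphocytes were named from markers. The T cell compartment held 935 KO and 2954 WT cells, NK-like cells 218 and 2033, B-like cells 784 and 2323, and group 2 innate lymphoid (ILC2-like) cells 9 and 153. Every one of the 8 NK markers and 8 B markers was raised in its cluster, and 7 of 8 ILC2 markers were raised in theirs. Among named T cells the makeup differed between the libraries. Naive-type CD8-like cells made up 17.6% of KO and 41.2% of WT named T cells, naive-type CD4-like cells 12.4% and 30.5%, memory-type CD8-like cells 24.5% and 4.03%, effector-type CD8-like cells 9.05% and 5.84%, activated CD4-like cells 15.2% and 8.74%, and γδ-like cells 21.3% and 9.66%. The activated CD4-like cluster raised all 8 markers of the regulatory T list. The γδ-like cells of the KO library lay mainly in a cluster led by Il17a and Trdv4 (135 KO and 2 WT cells) and those of the WT library in clusters led by Trgc4 and Trgv2 (13 and 163 cells, with 4 of 8 γδ and 5 of 8 CD8 markers raised) and by Il23r and Sdc1 (12 and 65 cells), so pooled γδ-like values compare different clusters. Clusters of mixed markers held 19.3% of the KO and 18.9% of the WT compartment, and 89.4% and 80.7% of these cells were called doublets.

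Over the whole T cell compartment, effector-type receptors were higher and lymph node receptors lower in the KO library. Of the 9 receptors, 4 (Ccr2, Ccr10, Cxcr3 and Cxcr6) were at least 2-fold higher, where 5.37% of all genes with at least 20 UMIs were, and 1 (Ccr9) was at least 2-fold lower, where 7.63% of all such genes were. The median log2 ratio of the 9 was 0.95, against -0.05 for all genes tested. Because the 9 were chosen with earlier results of these data known, these contrasts with all genes are a description only. Cxcr6 stood at 250.3 CPM in the KO and 44.6 CPM in the WT library (ratio 5.61, 5.13 to 6.14) and Ccr2 at 355 and 74.9 CPM (4.74, 4.41 to 5.09). Neither interval came near 1. Named T cells held only 864 of the 2005 KO and 671 of the 1227 WT Ccr2 UMIs, at a ratio of 3.90. The other Ccr2 UMIs of the compartment lay in its mixed or unnamed clusters. Ccr10 gave 27.6 against 1.83 CPM (15.1, 10.2 to 23.1), from 156 and 30 UMIs. Its log2 ratio of 3.92 was 2.80 without doublets, 2.94 at a clustering resolution of 1.2 and 2.91 with classes taken from lineage UMIs. In the other direction, Ccr9 gave 13.3 against 40.8 CPM (0.326, 0.253 to 0.414), S1pr1 309 against 554 CPM (0.558, 0.530 to 0.588) and Ccr7 331 against 526 CPM (0.629, 0.598 to 0.661). S1pr5 did not differ beyond counting error, at 10.5 against 12.9 CPM (0.811, 0.597 to 1.09). Named T cells held 24 of its 59 KO and 74 of its 211 WT UMIs.

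These pooled ratios moved with the makeup of the compartment. When the 6 named subsets were given equal weight, the log2 ratio of Ccr2 went from 1.96 over named T cells to 1.05, that of Cxcr3 from 1.18 to 0.28 and that of Ccr9 from -1.59 to -0.69. Ccr10 went from 4.22 to 3.14 and Cxcr6 from 2.63 to 1.83. The pooled γδ-like cells, which are among these 6 subsets, still compared different clusters between the libraries. Equal weight did not take out that difference in makeup. The receptors are described within each subset.

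**Figure D1:**
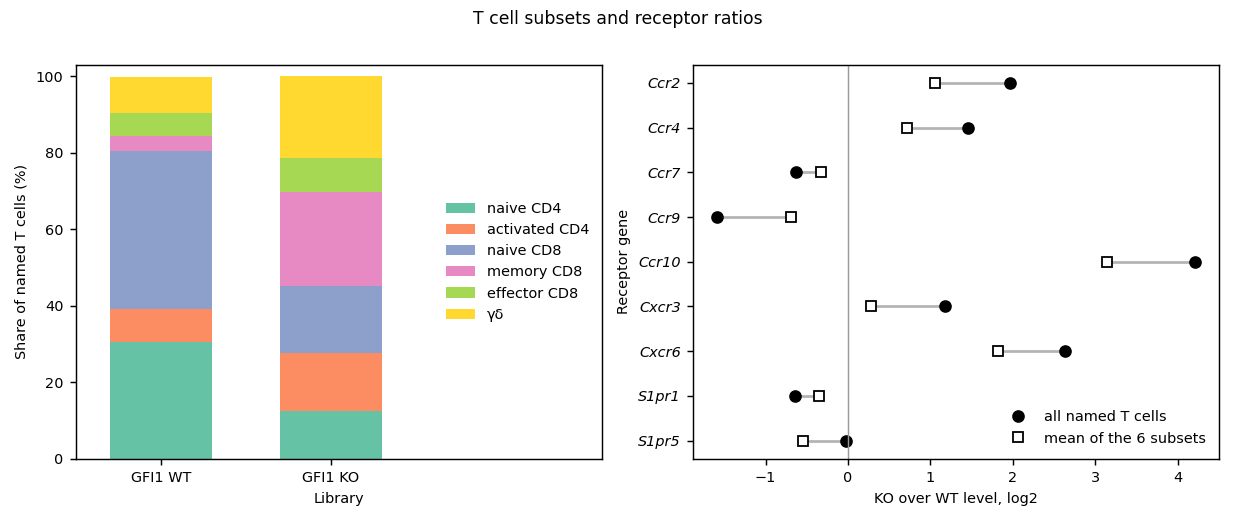
Left, share of the named T cells (percent) that each of 6 subsets made up in each library, and right, KO over WT level (log2) of each receptor over all named T cells (circles) and as the mean of the 6 subsets with equal weight (squares). Equal weight brings Ccr2 from 1.96 to 1.05, Cxcr3 from 1.18 to 0.28 and Ccr10 from 4.22 to 3.14. The γδ subset still compares different clusters between the libraries.

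**Figure D2:**
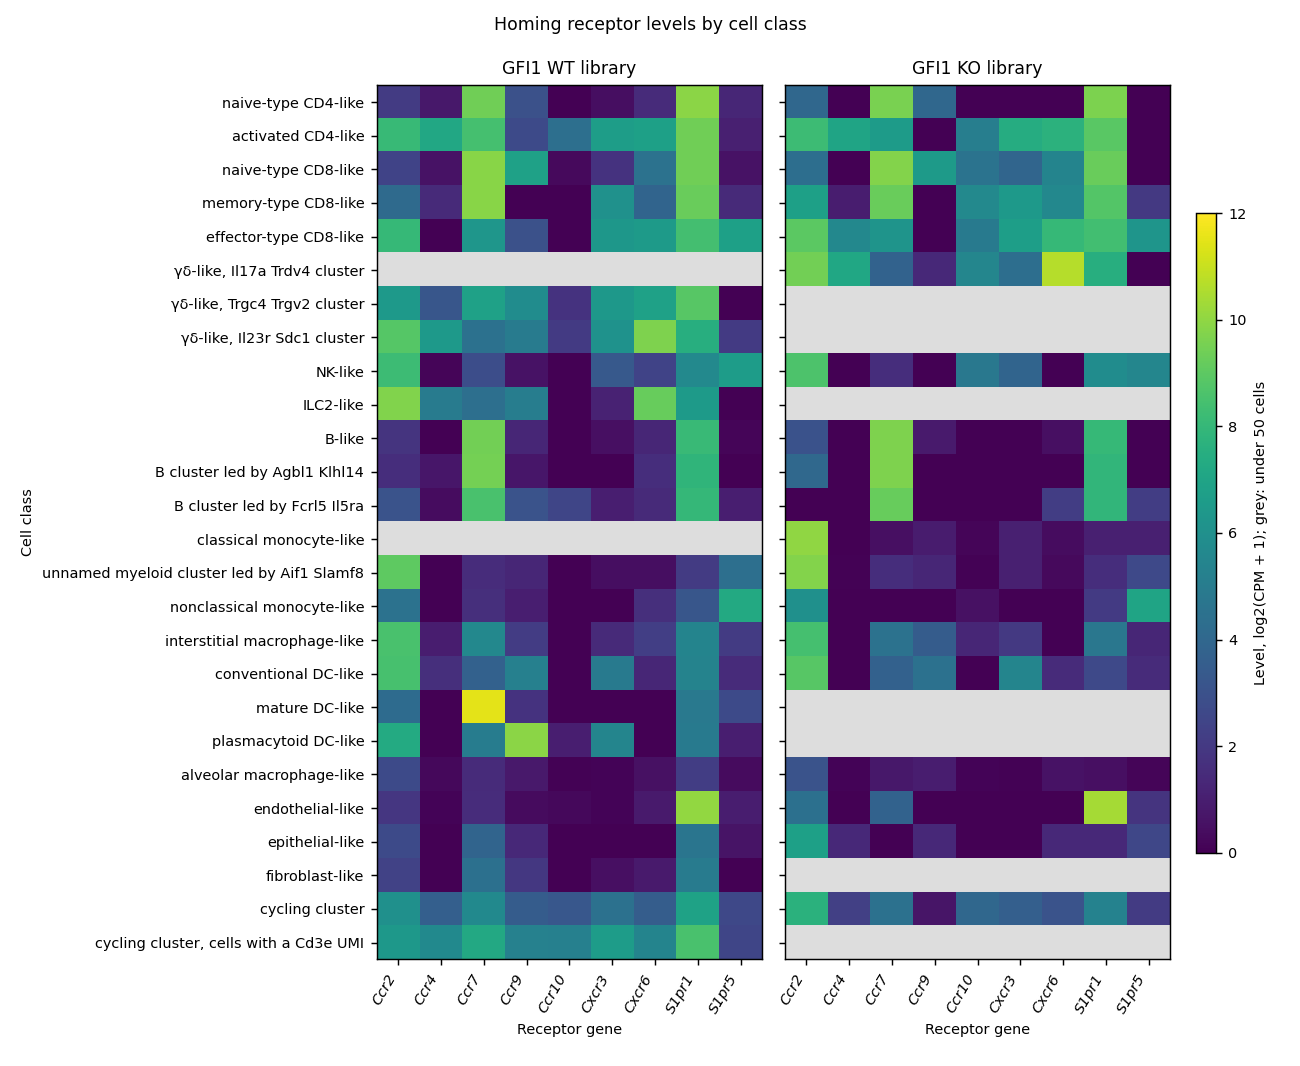
Level of the 9 receptors (log2 of CPM plus 1, colour) in each cell type of the KO and WT libraries, with types of under 50 cells in grey. Ccr7 and S1pr1 are high in the naive-type T and B rows, Cxcr6 is highest in the Il17a-led γδ-like cells (1618 CPM in KO) and Ccr10 is visible in the KO CD8-like and NK-like rows, where the WT library has at most 1 UMI per class.

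The lymph node entry and exit receptors were high in the naive-type T cells of both libraries. Ccr7 stood at 881 CPM in KO and 945 CPM in WT naive-type CD8-like cells (ratio 0.933, 0.849 to 1.02) and at 764 and 682 CPM in naive-type CD4-like cells (1.12, 0.979 to 1.28). In naive-type cells the libraries did not differ in Ccr7 beyond counting error. In activated CD4-like cells, Ccr7 was lower in the KO library at 94.4 against 354 CPM (0.267, 0.186 to 0.372), with 14.0% against 28.8% of cells holding a UMI. In memory-type CD8-like cells it was 603 against 921 CPM (0.655, 0.583 to 0.736). In the order of WT levels the memory-type cells were level with naive-type CD8-like cells (ratio of naive to memory 1.03, 0.938 to 1.12), below only mature dendritic cells at 2942 CPM. The orders took types of at least 50 cells, which left out the 10 mature dendritic cells of the KO library. The KO order ran from naive-type CD8-like cells over a B cluster led by Agbl1 and Klhl14 and B-like cells to naive-type CD4-like cells. Each did not differ beyond counting error from the next of these. Naive-type CD4-like cells stood above memory-type cells, which came next (ratio 1.27, 1.09 to 1.47).

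S1pr1 was highest in endothelial-like cells, at 1325 CPM in KO and 1070 CPM in WT, where the receptor is known to govern vessel barrier function. Among lymphocytes it was highest in naive-type CD4-like cells, at 800 against 957 CPM (0.836, 0.735 to 0.948). It was lower in the KO library in activated CD4-like cells (494 against 678 CPM, 0.729, 0.619 to 0.855) and in memory-type CD8-like cells (441 against 608 CPM, 0.726, 0.631 to 0.836). In naive-type CD8-like cells (617 against 678 CPM, 0.909, 0.812 to 1.02) and effector-type CD8-like cells (328 against 344 CPM, 0.953, 0.735 to 1.23) the interval of the ratio held 1. Cells with UMIs of both Ccr7 and S1pr1 made up 76.5% of KO and 74.5% of WT naive-type CD8-like cells, close to the products of the separate shares (76.5% and 73.8%).

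B-like cells carried Ccr7 and S1pr1 and few UMIs of the others. Ccr7 stood at 810 CPM in KO and 691 CPM in WT B-like cells (1.17, 1.11 to 1.24), found in 79.1% and 78.4% of cells. S1pr1 stood at 265 and 277 CPM (0.958, 0.875 to 1.05). A smaller B cluster led by Fcrl5 and Il5ra held 583 against 372 CPM of Ccr7 (1.57, 1.32 to 1.85). Only 3 receptors reached 20 UMIs in B-like cells. Ccr2 was the 1 counted at least 2-fold higher (background 1.94% of genes) and 0 were at least 2-fold lower (2.25%). Ccr2 rested on 17 and 19 UMIs in 2.04% and 0.474% of cells. Alveolar macrophage-like cells, which were deeper (medians of 11240 and 11701.5 UMIs), held it in 7.18% and 5.19%. Their levels were 7.27 and 5.39 CPM, against 7.12 and 2.45 CPM in B-like cells. The Ccr2 call in B-like cells is not read as a difference, and the source of these UMIs was not tested.

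Ccr9 was highest in plasmacytoid dendritic-like cells and, among T cells, in naive-type CD8-like cells. Conventional dendritic-like cells held 21.2 CPM in KO and 36.0 CPM in WT, and ILC2-like cells 33.5 CPM in WT. Naive-type CD8-like cells held 92.9 CPM in KO and 117 CPM in WT (0.792, 0.585 to 1.05), in 26.5% and 33.3% of cells, so the values did not differ beyond counting error. Memory-type CD8-like cells held 0 UMIs in 184 KO and 96 WT cells, which allows up to 2.93 CPM in the KO library and 5.02 CPM in the WT library. Plasmacytoid dendritic-like cells held 1001 and 960 CPM (13 and 132 cells). The low pooled Ccr9 of the KO T cells stood beside a smaller share of naive-type CD8-like cells, 17.6% against 41.2%. Among annotated genes that overlap Ccr9, Slc6a20a and Lztfl1 lie on the opposite strand and Gm17200 on the same strand. The strand setting of the counting was not given in the sources used here.

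Ccr10 was found in CD8-like cells of the KO library and in almost none of the WT library. It had 72 UMIs in 60 of 384 KO cells (15.6%, 12.1 to 19.6) and 1 UMI in 1 of 1217 WT cells (0.0822%, 0.00208 to 0.457), which gave 38.5 against 0.187 CPM (206-fold, 35.8 to 8248). In CD8-like cells 4 of the 8 receptors tested (Ccr2, Ccr10, Cxcr3 and Cxcr6) were at least 2-fold higher (3.76% of all genes) and 1 (Ccr9) at least 2-fold lower (4.41%). Each CD8-like subset of the KO library held Ccr10. Memory-type cells had 51 UMIs in 44 of 184 KO cells (49.8 CPM) and 0 in 96 WT cells, at least 9.91-fold higher against a floor of 3 counts per library. Effector-type cells had 8 UMIs against 0 (29.2 CPM, at least 5.73-fold), and naive-type cells 13 against 1 (22.8 against 0.240 CPM, 94.8-fold, 14.2 to 4030). In 49 of the 60 KO cells a single UMI was found, and the most in 1 cell was 3. Cells with a Ccr10 UMI were deeper, at a median of 6059 UMIs against 4390 for the others. B-like cells, which should lack this receptor outside plasma cells, held 0 Ccr10 UMIs in 784 KO and 2323 WT cells at medians of 2888 and 3075 UMIs, and alveolar macrophage-like cells held it in 0.0844% and 0.0803% of cells. The Fcrl5-led B cluster, in which 4 of 8 plasma cell markers were raised, held 14 Ccr10 UMIs in 0.962% of its WT cells. Thinned to 1500 UMIs per cell, which left out 3 KO and 14 WT cells, 5.25% of KO and 0.0831% of WT CD8-like cells kept a Ccr10 UMI.

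The size of this ratio depended on how CD8 cells were delimited. When cells were taken by a Cd3e UMI and at least 30 UMIs of the CD8a antibody tag, with the CD4 tag under 30, 68 of 404 KO cells (16.8%, 13.3 to 20.8) and 8 of 1212 WT cells (0.660%, 0.285 to 1.30) held Ccr10. The UMIs numbered 100 and 26, a ratio of 11.2 (7.18 to 17.9). Of the 26 WT UMIs, 13 came from 1 cell. Of the 8 WT cells, 4 lay in the activated CD4-like cluster and 3 in a cluster of cycling cells of several types, neither of which counts as CD8-like. Outside the cycling cluster the tag-defined ratio was 35.3 (16.4 to 90.4). In cycling cells with a Cd3e UMI, Ccr10 was at 91.3 CPM in 27 KO and 36.5 CPM in 75 WT cells (2.50, 1.53 to 4.03). That cluster held 20% of all Ccr10 UMIs of the KO and 49.0% of those of the WT library. Of the 60 KO cells found in CD8-like clusters, 53 carried the CD8a tag and 1 the CD4 tag.

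**Figure D3:**
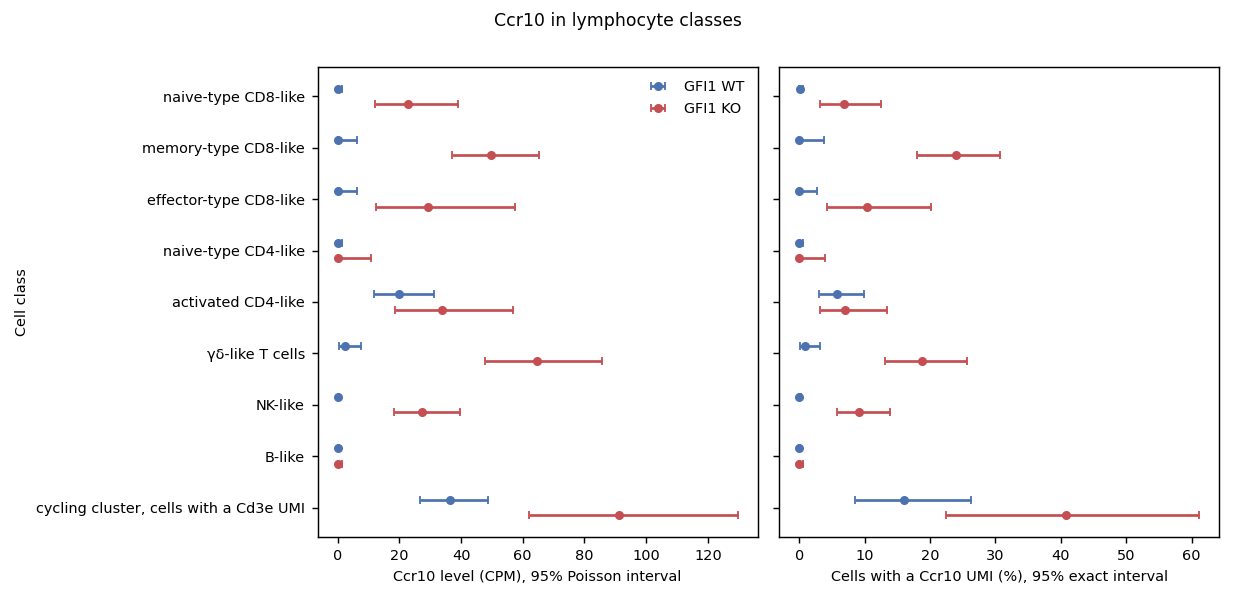
Ccr10 in lymphocyte classes of the KO (red) and WT (blue) libraries, as the level (CPM, left) and the share of cells with a UMI (percent, right), points with exact 95% intervals for counting error. The CD8-like and NK-like shares of the KO library lie between 6.82% and 23.9% with WT shares at or near 0, while activated CD4-like cells show 7.02% in KO and 5.77% in WT.

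Ccr10 also appeared in other KO lymphocytes. NK-like cells had 28 UMIs in 20 of 218 KO cells (27.4 CPM) and 0 in 2033 WT cells, at least 71.6-fold higher. In γδ-like cells it was at 64.8 against 2.55 CPM (25.4, 8.2 to 128), and in ILC2-like cells 11 UMIs lay in 3 of 9 KO cells with 0 in 153 WT cells. Activated CD4-like cells were the exception, with 33.9 CPM (14 UMIs) in KO and 19.9 CPM (18 UMIs) in WT (1.71, 0.785 to 3.63). Naive-type CD4-like cells had 0 UMIs in both libraries. The order of KO levels took types of at least 50 cells and left out the cycling cells. ILC2-like, Trgc4-led γδ-like and Il23r-led γδ-like cells were too few in the KO library and were not ranked. In this order came memory-type CD8-like, Il17a-led γδ-like, activated CD4-like, effector-type CD8-like, NK-like and naive-type CD8-like cells. Each did not differ beyond counting error from the next of these, and types further apart were not compared. In the WT library activated CD4-like cells stood above every other named type of at least 50 cells.

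Cntnap1, a neuronal contactin-associated gene, lies on the opposite strand and overlaps Ccr10 in the annotation. Counting by strand separates reads of such a pair, but the strand setting was not given in the sources used here. Cntnap1 had 35 UMIs in KO and 1 in WT CD8-like cells (18.7 against 0.187 CPM, 100-fold, 16.8 to 4067), 31 and 0 of them in memory-type cells. In NK-like cells it had 10 and 6 UMIs (9.78 against 0.765 CPM, 12.8, 4.21 to 42.8). Cntnap1 was therefore higher in the KO library in memory-type CD8-like and NK-like cells, as Ccr10 was. In Il23r-led γδ-like cells it had 4 UMIs in KO and 0 in WT. Naive-type CD8-like cells held 1 UMI in each library, and effector-type cells 3 in KO and 0 in WT. The Il17a-led γδ-like cells of the KO library held 3. These last counts were too few for a ratio. How many UMIs of either gene belong to the other was not tested. In KO memory-type cells Cntnap1 was found in 18.2% of the cells with Ccr10 and 14.3% of those without.

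The KO CD8-like cells with a Ccr10 UMI were set against the 324 without one over 8080 genes, ranked by the interval limit nearer to 1. The highest by that rank were Itga2, an integrin subunit (5.71, 3.06 to 10.9), Trgc2 (5.22, 2.11 to 13.3) and Trdc (3.30, 2.34 to 4.65), which encode γδ T cell receptor constant regions, Ifng, the effector cytokine (2.98, 1.99 to 4.43), and Ctla4, the inhibitory receptor (2.55, 2.03 to 3.18). The lowest by that rank were Gria3 (0 against 58 UMIs), Slc28a2b (0.0618, 0.00154 to 0.357), Iigp1 (0.122, 0.0144 to 0.457), Tubb2a (0.199, 0.0894 to 0.385) and Ccl4 (0.235, 0.105 to 0.457). Among the other receptors, Cxcr3 was higher in the Ccr10 cells (96.5 against 58.8 CPM, 1.64, 1.08 to 2.45), and Ccr7 (1.12, 0.97 to 1.29) and S1pr1 (0.855, 0.715 to 1.02) did not differ beyond counting error. Of the 44 memory-type cells with Ccr10, 81.8% also held Ccr7, as did 79.9% of all memory-type KO cells. Within memory-type cells alone, 44 with Ccr10 against 140 without, Cxcr3 did not differ beyond counting error (1.33, 0.821 to 2.11), whereas Ccr2 was higher in the Ccr10 cells (1.59, 1.06 to 2.35). The part of depth in these ratios, and of subset mixture in those of the other genes, was not tested.

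Cxcr3, the receptor for interferon-induced chemokines, was highest in activated CD4-like cells, at 172 CPM in KO and 100.4 CPM in WT (1.71, 1.24 to 2.36). In memory-type CD8-like cells it was at 84.9 and 65.3 CPM (1.30, 0.882 to 1.95) and in effector-type CD8-like cells at 106 and 79.7 CPM (1.33, 0.805 to 2.15), neither beyond counting error. The pooled CD8-like ratio of 3.70 (2.81 to 4.88) exceeded those of both these subsets, and naive-type CD8-like cells held 14.0 against 2.40 CPM (5.84, 2 to 16.4) on 8 and 10 UMIs. CD4-like cells gave a pooled ratio of 3.81 (2.75 to 5.25). In CD4-like cells 4 of the 8 receptors tested (Ccr2, Ccr10, Cxcr3 and Cxcr6) were at least 2-fold higher (5.19% of all genes) and 0 were at least 2-fold lower (5.81%). Activated cells were 114 of 207 KO and 208 of 934 WT CD4-like cells. Within activated CD4-like cells 0 of 7 receptors tested were at least 2-fold higher (3.28% of all genes) and 1 (Ccr7) was lower (5.1%). In naive-type CD4-like cells 1 of 3 (Ccr9, on 5 and 19 UMIs) was higher (3.87%) and 0 were lower (9.23%).

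In γδ-like cells Cxcr3 went the other way, at 21.1 CPM in KO and 79.8 CPM in WT (0.265, 0.146 to 0.453). Of the 8 receptors tested there, 4 (Ccr2, Ccr4, Ccr10 and Cxcr6) were at least 2-fold higher (8.58% of all genes) and 4 (Ccr7, Ccr9, Cxcr3 and S1pr1) at least 2-fold lower (10.1%). The clusters behind these ratios differed in the same receptors. The KO cells of the Il17a-led cluster held 1618 CPM of Cxcr6, 696 of Ccr2, 143 of Ccr4, 12.7 of Ccr7 and 1.59 of Ccr9. The WT cells of the Trgc4-led cluster held 117 CPM of Cxcr6, 87.6 of Ccr2, 8.28 of Ccr4, 117 of Ccr7 and 55.6 of Ccr9. By ratio, the WT cells of the Il23r-led cluster lay nearer the Il17a-led cells in 4 of these receptors, with 821 CPM of Cxcr6, 462 of Ccr2, 88.8 of Ccr4 and 21.4 of Ccr7. Their Ccr9 (30.6 CPM) lay nearer the Trgc4-led cells. So did their Cxcr3, at 67.4 CPM against 84.0 in Trgc4-led and 19.1 in Il17a-led cells. Their Ccr10 did too, at 3.06 CPM (1 UMI) against 2.37 in WT Trgc4-led and 44.5 in KO Il17a-led cells. Ccr10 also differed between the libraries within these clusters. The 13 KO Trgc4-led cells held 16 Ccr10 UMIs, in 4 cells, with 2 in 163 WT cells. The 12 KO Il23r-led cells held 5, with 1 in 65 WT cells.

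Cxcr6, the receptor for the membrane-bound chemokine CXCL16 and a marker of tissue-resident lymphocytes, was higher in the KO library in all 3 CD8-like subsets and in activated CD4-like cells. Effector-type CD8-like cells held 266 against 91.6 CPM (2.91, 2.02 to 4.21), memory-type cells 47.8 against 13.4 CPM (3.57, 1.68 to 8.73), activated CD4-like cells 211 against 110.3 CPM (1.91, 1.42 to 2.57) and naive-type CD8-like cells 42.0 against 22.1 CPM (1.90, 1.16 to 3.01). In naive-type CD4-like cells it had 0 and 5 UMIs. Within the Il23r-led γδ-like cluster it was at 556 CPM in 12 KO and 821 CPM in 65 WT cells (0.677, 0.442 to 1.00). ILC2-like cells held 584 CPM in the WT library, where 72.5% of 153 cells carried UMIs of both Ccr2 and Cxcr6. The pair was found in 88.1% of the 135 KO cells of the Il17a-led cluster and in 61.5% of the 65 WT cells of the Il23r-led cluster. NK-like cells held 0 Cxcr6 UMIs in KO and 34 in WT, at most 0.677 of the WT level at the floor of 3 counts. In the annotation Fyco1 overlaps Cxcr6 on the opposite strand, and the strand setting of the counting was not given.

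**Figure D4:**
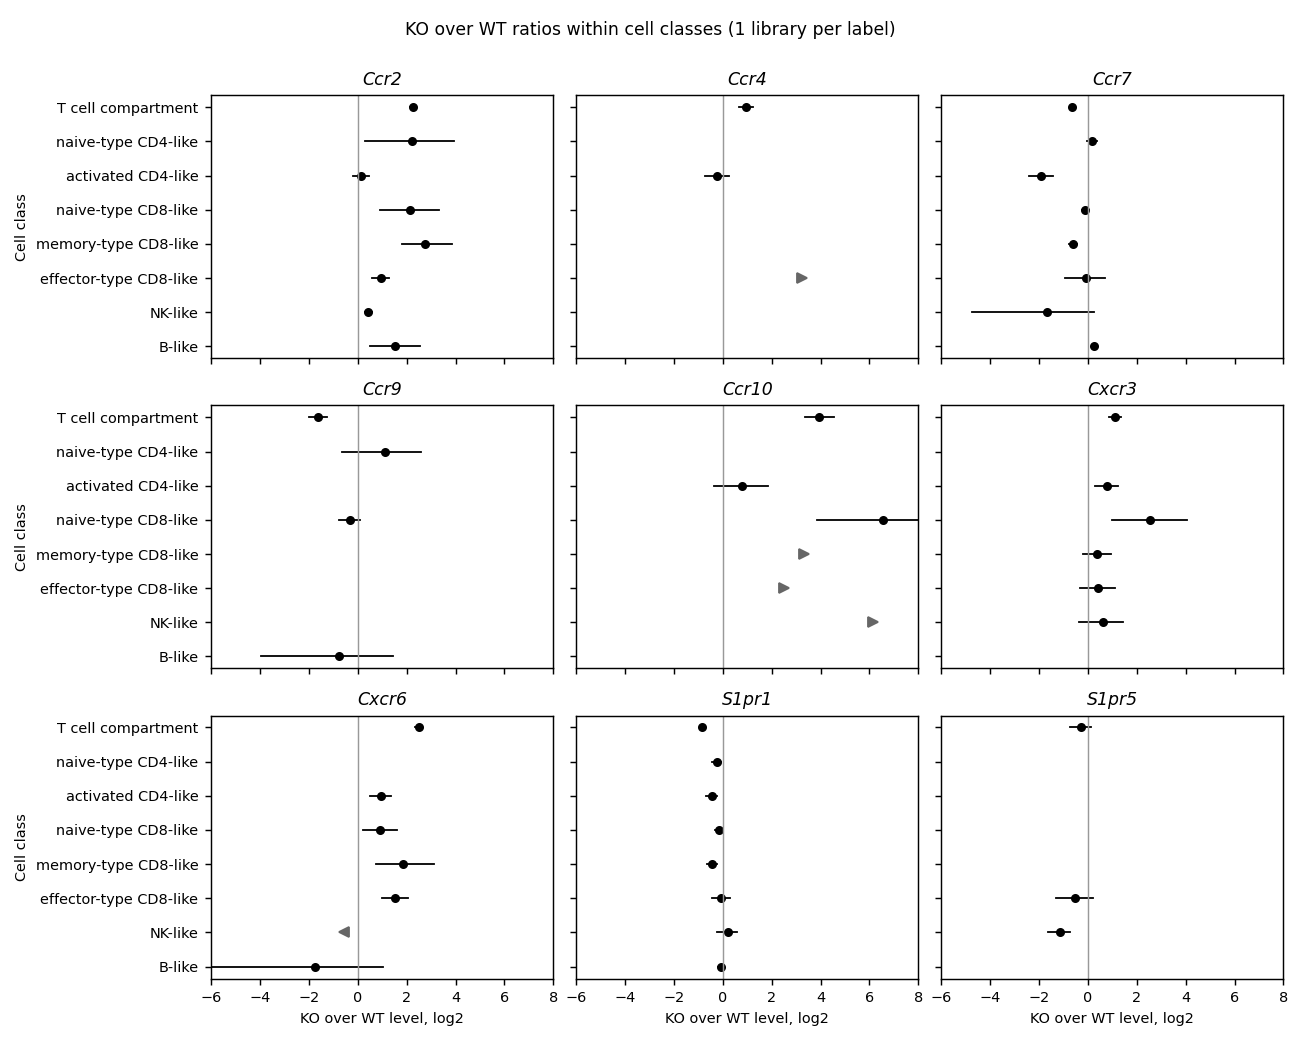
KO over WT ratio (log2) of each receptor in each class, with exact 95% counting intervals clipped at -6 and 8, and arrowheads for bounds against 0 UMIs. Ccr10 lies right of 0 in every CD8-like subset and in NK-like cells, Ccr7 and S1pr1 lie left of 0 in memory-type CD8-like and activated CD4-like cells, and S1pr5 lies left of 0 in NK-like cells.

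Ccr2, the receptor for CCL2 that draws monocytes out of bone marrow, was found in myeloid, innate lymphoid, NK-like and effector-type T cells. ILC2-like cells held 854 CPM in the WT library, in 92.2% of 153 cells. Effector-type CD8-like cells held 507 against 265 CPM (1.92, 1.51 to 2.42) and NK-like cells 399 against 296 CPM (1.35, 1.21 to 1.5). Activated CD4-like cells held 298 and 274 CPM (1.09, 0.869 to 1.36), within counting error. Within that cluster, Ccr2 was higher in cells with a Foxp3 UMI, the regulatory T cell factor, than in cells without: 422 against 255 CPM in KO (1.66, 1.12 to 2.42) and 440 against 206 CPM in WT (2.13, 1.65 to 2.76). S1pr1 went the other way in both libraries (0.701, 0.483 to 0.995 in KO and 0.575, 0.466 to 0.705 in WT), and so did Cxcr6 (0.416, 0.199 to 0.787 and 0.579, 0.332 to 0.963).

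In low-expressing types Ccr2 has to be read against a background that differed between the libraries. Epithelial-like cells, which should lack it, held a Ccr2 UMI in 27.6% of KO and 4.83% of WT cells, at medians of 1932 and 6866 UMIs per cell, and at 113 and 5.38 CPM. Endothelial-like cells held it in 5.61% and 0.799%. Memory-type CD8-like cells showed 112 against 16.7 CPM (6.70, 3.52 to 14.4), a KO level that did not differ from that of KO epithelial-like cells (epithelial over memory 1.00, 0.735 to 1.36) but lay above that of KO endothelial-like cells (20.4 CPM), naive-type CD8-like cells (19.3 CPM) and B-like cells (7.12 CPM). Naive-type CD8-like cells (6.82% and 1.53% of cells) lay below the KO and WT epithelial shares. Their Ccr2 is not read as a difference between the libraries, and the source of these UMIs was not tested.

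Classical monocyte-like cells held 60.7% of all Ccr2 UMIs of the KO library and 2.48% of those of the WT library, where NK-like cells held 23.5%. Their cluster was led by Ly6a2, Prtn3, Lcn2 and Vcan. It raised 7 of 7 classical monocyte markers and 3 of 7 neutrophil markers. Its Ccr2 level was 1023 CPM in 2877 KO cells and 1025 CPM in 32 WT cells (0.997, 0.879 to 1.14), a difference within counting error. Nonclassical monocyte-like cells, which are known for low Ccr2, held 64.3 against 22.4 CPM (2.87, 2.03 to 4.14), in 17.6% and 7.82% of cells. The share in KO nonclassical cells lay below that in KO epithelial-like cells. Pooled over both, the level was 956 against 133 CPM (7.18, 6.39 to 8.09), a log2 ratio of 2.84, beside 2877 against 32 classical and 387 against 358 nonclassical cells. A myeloid cluster led by Aif1 and Slamf8, left unnamed although it raised 6 of 7 classical monocyte markers, held 864 against 526 CPM (1.64, 1.56 to 1.74) in 1917 and 386 cells. These were 29% of the Ccr2 UMIs of the KO and 14.5% of those of the WT library. The pooled log2 ratio was 1.39 with this cluster added, 1.40 at a clustering resolution of 0.5 and 5.40 with each library clustered on its own.

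Ccr4, the receptor for CCL17 and CCL22, was found among T cells mainly in activated CD4-like and γδ-like cells. Activated CD4-like cells held 126 CPM in KO and 147 CPM in WT (0.858, 0.610 to 1.19), within counting error. ILC2-like WT cells held 31.0 CPM. The pooled T cell ratio of 1.93 (1.58 to 2.35) stood beside the 143 CPM of the Il17a-led γδ-like cells of the KO library. In effector-type CD8-like KO cells all 13 Ccr4 UMIs came from 1 of 68 cells.

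S1pr5 marked nonclassical monocyte-like, effector-type CD8-like and NK-like cells, in that order in both libraries, with effector-type and NK-like cells not differing within a library. In NK-like cells it was lower in the KO library, at 44.0 against 98.2 CPM (0.448, 0.324 to 0.606), with a UMI in 17.9% of 218 KO and 29.1% of 2033 WT cells. Thinned to 1500 UMIs the shares were 8.10% (4.79 to 12.6) and 15.2% (13.6 to 16.9). In effector-type CD8-like cells it was at 76.6 and 110.3 CPM (0.694, 0.403 to 1.15) and in nonclassical monocyte-like cells at 129 and 155 CPM (0.832, 0.706 to 0.982). Of the 7 receptors tested in NK-like cells, 1 (Ccr10) was counted at least 2-fold higher (4.62% of all genes) and 3 (Ccr7, Cxcr6 and S1pr5) at least 2-fold lower (8.52%). Ccr7 rested on only 2 and 49 UMIs. Cxcr6 rested on 0 and 34 UMIs, and its bound at the floor of 3 counts does not reach 2-fold lower.

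Of the 20 other trafficking receptors, 8 could be tested in CD8-like cells and 0 were at least 2-fold lower in the KO library, while Gpr183, an oxysterol receptor, was higher at 520 against 213 CPM (2.44, 2.23 to 2.66). Gpr183 was also higher in NK-like cells at 98.8 against 20.7 CPM (4.78, 3.69 to 6.17), and Ackr3, a scavenging receptor, in γδ-like cells on 45 UMIs against 1. Of the 12 adhesion and retention genes, 12 were tested in CD8-like cells and 2 were at least 2-fold lower: Itga4, a subunit of the integrin VLA-4, at 242 against 619 CPM (0.391, 0.353 to 0.431), and Itgae, which encodes CD103, at 23.0 against 76.3 CPM (0.302, 0.215 to 0.414). Within naive-type CD8-like cells, which held 38 of its 43 KO and 399 of its 408 WT UMIs, Itgae was at 66.6 against 95.8 CPM (0.695, 0.484 to 0.97). In NK-like cells Itga4 was at 435 against 1171 CPM (0.372, 0.337 to 0.409) and Cd69, a retention marker that binds S1PR1, at 78.3 against 29.1 CPM (2.69, 2.06 to 3.49). Of 19 ligands and sphingosine 1-phosphate enzymes, 5 could be tested in CD8-like cells, with 0 at least 2-fold higher and 1 (Cxcl10) lower on 3 and 40 UMIs. The median log2 ratios of the 3 lists in CD8-like cells were 0.28, 0.30 and -0.28, against 0.74 for the 8 homing receptors and -0.03 for all genes tested. The homing receptors and these lists were chosen with earlier results of these data known, so the medians only describe them.

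Across 41 points, each a cell type of at least 50 cells in 1 library, the genes most like each receptor in pattern were named from 12128 genes as a description. S1pr1 was closest to Gimap6 (Pearson r = 0.946), a GTPase of lymphocytes, and Smad7 (0.930), Cxcr6 to Acsbg1 (0.892) and Tnfrsf25 (0.869), Ccr4 to Il17a (0.877), Ccr7 to Fam169b (0.869), Cxcr3 to Gna15 (0.829), a G protein subunit, Ccr2 to Atp2b4 (0.768), S1pr5 to Cx3cr1 (0.767), the fractalkine receptor, Ccr10 to Scart1 (0.761), a γδ T cell scavenger receptor gene, and Ccr9 to Setd7 (0.719). Within the list, Cxcr6 and Ccr4 were the closest pair (0.847). Points of 1 library share its depth and free RNA.

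GFI1 is a zinc finger protein that binds DNA at sites with an AATC core. The promoters of the receptors (250 bases before to 50 after the start, RefSeq, GRCm38.p6) were searched on both strands for a pair of 6-letter runs from its known site, which overlap each other by 4 letters. The run AATCAC was in 1 of the 6 receptor promoters at hand, that of Ccr2, while 10.4% of 32851 promoters of this length held it. For the run TAAATC the count was 0 of 6 receptor promoters, against 9.19% of all. The 30 bases around the match are given on the plus strand at chr9:124102203-124102232, with the match in capitals. There it reads GTGATT, the reverse complement, because AATCAC lies on the strand opposite to Ccr2. These bases lie just downstream of the Ccr2 start and are shown because Ccr2 was the receptor with the match.
Ccr2: acctggtgagttGTGATTtttccatgtctt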

How the data were processed

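The authors sorted live cells from dissociated lungs of adult mice and built 10x Genomics 3′ libraries. The authors deposited filtered counts of UMIs per gene and antibody tag and cell. The submitters' notes name Cell Ranger 9.0.1 and GRCm39. Here 205 of 10700 KO and 173 of 19515 WT cells were removed for having fewer than 500 UMIs, fewer than 200 genes or a mitochondrial share above 20%, and ribosomal, mitochondrial and Gm- genes (9538, holding 18.9% and 16.4% of UMIs) stayed out of all levels, following the study's methods. Cells of both libraries were clustered together on 2000 variable genes, with 50 components and a Leiden resolution of 0.8 (Python 3.11.15, scanpy 1.11.5, leidenalg 0.10.2, scipy 1.17.1, R 4.3.3). The 9 receptors and the 20 other trafficking receptors were kept out of the variable genes. The 7 clusters of T cells were clustered again, giving 18. A cluster was named from a list fixed in the design when at least 3 of its markers were raised at least 1.5-fold in at least 5% of cells, and mixed clusters stayed unnamed. These limits, and the alternatives marked below as added, were chosen after the data were examined. The 9 receptors and the lists were chosen with earlier results of these data known. Doublets were marked with Scrublet in scanpy (3.30% of KO and 5.92% of WT cells) and kept.

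UMIs were summed per class and library, and no model, test or p-value was used. A gene with at least 20 UMIs in a class over both libraries was counted as higher at a ratio of at least 2 and as lower at a ratio of at most 0.5. Counts of 0 were taken as they stood for this. Only for the median log2 ratios were 0.5 UMIs added to each count. A level of 0 was bounded with 3 counts. The rule for named genes took the 9 receptors, genes of the 3 lists (20 receptors, 12 adhesion genes, 19 ligands and enzymes) past 2-fold in a class, at most 6 per list, the 3 genes of most similar pattern, Gfi1, and the 5 highest and 5 lowest ratios beside Ccr10, ranked by the interval limit nearer to 1. Some genes that this rule would name are not reported here. The counting of ratios was tested on simulated data. Alternatives were other resolutions, doublets left out, stricter cell filters, all genes in the total, the receptors among the variable genes, each library clustered on its own, thinning to 1500 UMIs and classes from lineage UMIs. For shares, cells were thinned to 1500 UMIs.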

Additional observations from a re-analysis of the deposited data

Results flagged for a closer look

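The KO over WT ratio of Cxcr3 ran in opposite directions in T cell classes of the same 2 libraries. It was 3.70 in CD8-like T cells and 3.81 in CD4-like T cells but 0.265 in γδ-like T cells, where 16 UMIs lay in 160 KO cells and 94 in 230 WT cells. The difference between the classes was not tested, because each label has 1 library. The γδ-like cells came from different clusters in the libraries, 135 of 160 KO cells from the Il17a-led cluster (19.1 CPM of Cxcr3) and 163 of 230 WT cells from the Trgc4-led cluster (84.0 CPM). The CD4-like and CD8-like cells also differed in makeup. Activated cells were 114 of 207 KO and 208 of 934 WT CD4-like cells, and held 172 CPM in KO and 100.4 CPM in WT. Memory-type CD8-like cells held 84.9 and 65.3 CPM and effector-type cells 106 and 79.7 CPM. Naive-type CD8-like cells held 14.0 and 2.40 CPM on 8 and 10 UMIs.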

How the results depend on the processing

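Over 13 results and 137 alternatives, 85 values stayed within the counting interval and 52 left it, and none of the called values changed sign. The values are KO over WT ratios on the log2 scale. At a resolution of 0.5 the T cell compartment gave 1.35 for Ccr4 (0.95 as reported), -0.56 for Ccr7 (-0.67), 2.72 for Cxcr6 (2.49) and -0.58 for S1pr1 (-0.84). At a resolution of 1.2 it gave 2.02 for Ccr2 (2.25), -0.83 for Ccr7, 2.94 for Ccr10 (3.92) and 0.83 for Cxcr3 (1.09). Without doublets it gave 2.13 for Ccr2, -0.94 for Ccr7, -2.02 for Ccr9 (-1.62), 2.80 for Ccr10, 0.64 for Cxcr3, 2.28 for Cxcr6 and -0.92 for S1pr1. With the receptors among the variable genes it gave 2.01 for Ccr2, -0.58 for Ccr7, 2.71 for Cxcr6 and -0.65 for S1pr1. With each library clustered on its own it gave 1.96 for Ccr2, 1.29 for Ccr4, -0.45 for Ccr7, 1.38 for Cxcr3, 2.83 for Cxcr6 and -0.54 for S1pr1. With classes from lineage UMIs it gave 1.75 for Ccr2, -0.56 for Ccr7, 2.91 for Ccr10 and -0.67 for S1pr1. Thinned to 1500 UMIs it gave 2.73 for Cxcr6, -0.66 for S1pr1 and 0.41 for S1pr5, whose reported -0.30 has an interval that holds 0. With named clusters only (added) it gave 1.96 for Ccr2, 1.46 for Ccr4, 2.63 for Cxcr6 and -0.64 for S1pr1. With 6 subsets weighted equally (added) it gave 1.05 for Ccr2, -0.33 for Ccr7, -0.69 for Ccr9, 3.14 for Ccr10, 0.28 for Cxcr3, 1.83 for Cxcr6 and -0.35 for S1pr1. Ccr10 in CD8-like cells was 7.69, 3.33 from lineage UMIs and 3.48 by antibody tag (added). Ccr2 in monocyte-like cells was 2.84, 1.40 at a resolution of 0.5, 2.63 at 1.2, 5.40 with each library on its own, 3.18 thinned, 2.35 from lineage UMIs and 1.39 with the unnamed myeloid cluster added (added). Ccr7 in B-like cells was 0.23, and 0.48 from lineage UMIs. S1pr5 in NK-like cells (-1.16) ranged from -1.27 to -0.88. The causes of these moves were not tested. No paired analysis was possible because each label has 1 library, and for the same reason no library could be left out. Depth limits the Ccr10 ratio in CD8-like cells, which rests on 72 UMIs in KO and 1 in WT.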
